A study of Homo sapiens with 12 samples.

Results

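The genes of the centromere, the kinetochore and the spindle checkpoint were examined in cancer cells that had evolved under hydroxychloroquine (HCQ), an antimalarial and antirheumatic drug that disrupts autophagy. The 48 genes were taken by symbol from a count table of 28278 symbols, and all 48 were found. They were divided by role into 4 genes of the centromeric nucleosome and its loading, 13 of the inner kinetochore, 10 of the outer kinetochore, 5 of microtubule coupling, 9 of the spindle checkpoint and the RZZ complex, 3 of the chromosomal passenger complex, and 4 of cohesion protection and separase control. Cells labelled OVCAR3, from a serous ovarian carcinoma, and CCL218, from a colorectal adenocarcinoma, were passaged in plates of separate small wells. Control plates received no HCQ and were collected at passage 19. HCQ-evolved plates received 15 pulses of HCQ of 48 h, each followed by regrowth in fresh medium, and were collected at passage 15 after 7 drug-free days. Each of the 4 groups (control and HCQ-evolved under each line label) has 3 pools, made by combining the wells of the left (L), middle (M) or right (R) part of 1 plate, and polyadenylated RNA of each pool was sequenced. Passage number and plate both differ with treatment and cannot be told apart from it. The comparisons asked how the genes differ between HCQ-evolved and control pools under each label, and whether that difference is the same under both labels.

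The 12 libraries held 31147822 to 59965861 counts. Lineage markers did not set the labels clearly apart. The intestinal genes VIL1, LGALS4 and HNF4A averaged 242, 730 and 76.5 CPM (counts scaled to library size by TMM) in the control pools labelled OVCAR3, near the 188, 1050 and 117 CPM of the control pools labelled CCL218, whereas CDX2 and CEACAM5 averaged 10.9 and 5.09 CPM under the OVCAR3 label against 23.3 and 14.2 CPM. Of the ovarian markers in the OVCAR3-labelled control pools, WT1 and KRT7 averaged 0.296 and 1.55 CPM and ESR1 and SOX17 were at 0, and PAX8, MUC16 and WFDC2 averaged 12, 22.5 and 23.2 CPM against 8.32, 8.66 and 7.7 CPM in the CCL218-labelled ones. Of the tested markers of both lists, CEACAM5 (adjusted p = 0.012 in edgeR) and the ovarian marker MSLN (14.3 against 63.7 CPM, adjusted p = 0.03) were called between the control pools, both higher under the CCL218 label. At an unadjusted p under 0.05 in edgeR, 3 of 7 tested ovarian markers were lower under the CCL218 label and 1, MSLN, was higher. The 3 were WFDC2, MUC16 and FOLR1 (4.93 CPM under the OVCAR3 label against 2.56 CPM). KRT20, an intestinal keratin, was at or near 0 under both labels. The summed level of 10 intestinal markers was 976 to 1190 CPM in the OVCAR3-labelled control pools and 245 to 704 CPM in the HCQ-evolved ones, and 1230 to 1690 against 1300 to 1360 CPM under the CCL218 label, where LGALS4 made up 1050 and 786 CPM of it on average. Of 7 intestinal markers tested, 4 rose in the CCL218-labelled HCQ-evolved pools in edgeR (CDH17, GPA33, CEACAM5 and CDX2, with log2 fold changes of 3.77, 2.86, 2.1 and 1.54; median 1.54), and 0 were called under the OVCAR3 label (2 at an unadjusted p under 0.05; median -0.79). Markers of blood, stromal and endothelial cells summed to 2.49 to 4.83 CPM in all groups. The part of these marker levels in the results below was not tested, and the groups are called by their labels.

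The centromere is marked by nucleosomes that carry the histone H3 variant CENP-A. On them the inner kinetochore, or constitutive centromere-associated network (CCAN), is assembled, and it recruits the outer kinetochore, which holds spindle microtubules. Kinetochores without microtubules activate the spindle assembly checkpoint, which restrains the anaphase-promoting complex until every chromosome is attached, after which separase opens cohesin and the sister chromatids part. Many of these genes are transcribed late in the cell cycle. In bulk RNA, a change in the share of cells in G2 and mitosis and a change in RNA per such cell cannot be told apart. Many of their promoters are known to hold a cell cycle genes homology region (CHR), the element bound by the MuvB complex, and CCAAT boxes, which are bound by NF-Y.

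Promoter windows from 250 bases before to 50 after the start site were found in RefSeq (GRCh38.p14) for 39 of the 48 genes. For each of them the window nearest the start of its canonical transcript was used. The shares of all windows count every window, so a gene with further start sites can be counted more than once. A CHR, searched as TTTGAA or TTCGAA on both strands, was present in 22 of the 39 windows (56.4%) and in 5742 of all 35116 windows (16.4%). A CCAAT box, searched on both strands, was present in 26 of the 39 (66.7%) and in 34.6% of all windows, and both motifs were present in 16 (41%) against 6.38%. The windows of 6 genes are printed from 120 bases before to 30 after the start site, because their genes span the range of responses described below: CENPA, BUB1, BUB1B and CDCA8 were higher in the HCQ-evolved pools under both labels, SKA3 was higher in them under the OVCAR3 label and lower under the CCL218 label, and MAD1L1 overlapped under both. They lie at chr2:26785936-26786085 (plus strand), chr2:110678034-110678183 (minus), chr15:40160949-40161098 (plus), chr1:37692396-37692545 (plus), chr13:21176523-21176672 (minus) and chr7:2232916-2233065 (minus). Capitals mark a CHR or a CCAAT box read on either strand, and in CDCA8 the CHR and a CCAAT box overlap.
CENPA: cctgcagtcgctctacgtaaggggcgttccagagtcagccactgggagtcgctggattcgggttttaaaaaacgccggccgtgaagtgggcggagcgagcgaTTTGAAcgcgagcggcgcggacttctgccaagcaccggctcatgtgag
BUB1: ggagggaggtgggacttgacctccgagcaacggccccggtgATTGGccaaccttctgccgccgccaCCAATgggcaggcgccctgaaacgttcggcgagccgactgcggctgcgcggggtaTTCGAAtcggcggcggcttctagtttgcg
BUB1B: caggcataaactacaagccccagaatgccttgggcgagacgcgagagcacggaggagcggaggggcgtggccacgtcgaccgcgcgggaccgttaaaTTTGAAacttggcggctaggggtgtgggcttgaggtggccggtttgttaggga
CDCA8: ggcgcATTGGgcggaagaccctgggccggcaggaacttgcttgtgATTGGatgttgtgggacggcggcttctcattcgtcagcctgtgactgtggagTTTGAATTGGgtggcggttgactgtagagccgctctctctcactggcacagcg
SKA3: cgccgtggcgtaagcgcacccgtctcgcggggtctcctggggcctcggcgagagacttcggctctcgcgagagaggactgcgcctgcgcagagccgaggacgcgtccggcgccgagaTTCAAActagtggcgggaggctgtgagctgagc
MAD1L1: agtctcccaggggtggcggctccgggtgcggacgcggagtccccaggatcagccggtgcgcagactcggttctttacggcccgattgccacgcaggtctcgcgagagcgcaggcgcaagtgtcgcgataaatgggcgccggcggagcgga
The CHR began 18 bases before the start site of CENPA, 23 before those of BUB1B and CDCA8, 3 before that of SKA3, and at base 2 of the transcript of BUB1. MAD1L1 held no match to either motif in the whole window. Over the 21 genes with a CHR and a measured fold change, the median log2 fold change was 0.85 under the OVCAR3 label and 0.31 under the CCL218 label, and over the 17 without one it was 0.64 and 0.07.

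Under the OVCAR3 label, the RNA of this system was more abundant in every HCQ-evolved pool than in any control pool. The 48 genes summed to 1800, 1700 and 1730 CPM in the control pools L, M and R and to 2630, 2790 and 3390 CPM in the HCQ-evolved pools. Under the CCL218 label they summed to 1810, 1870 and 1910 CPM in the control pools and to 2100, 2180 and 2200 CPM in the HCQ-evolved pools. The control pools of both labels were thus within a narrow range, and the HCQ-evolved pools labelled OVCAR3 were the highest.

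Of the 47 genes that passed the filter on low counts, 43 had a log2 fold change above 0 under the OVCAR3 label, where 51.6% of all 12204 genes tested did, and the median was 0.81 against 0.016 for all genes. All 3 HCQ-evolved pools were above all 3 control pools for 35 of the 47 genes and below them for 0, against 13% and 12.7% of all genes. At an unadjusted p under 0.05, 33 were higher and 0 lower (8.38% and 7.87% of all genes). After Benjamini-Hochberg adjustment over all genes in edgeR's quasi-likelihood test, 1 gene, CENPA, rose (0.647% of all genes did) and 0 fell. DESeq2 called 28 higher (4.44% of all genes), and 26 were higher (4.42%) when all 12 libraries shared 1 estimate of the spread. Without the HCQ-evolved pool R, the pool with the highest sum, the median was 0.66, 45 genes were above 0 and 13 were called (4.6% of all genes). When any 1 of the other 5 pools was left out, 0 were called (0.025% to 0.404% of all genes). The differences in this system were thus broad and in 1 direction, with a single gene past the main threshold.

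Under the CCL218 label, the same genes differed less. The log2 fold change was above 0 for 37 of 47 genes (48.3% of all 12241 genes tested), with a median of 0.25 against -0.017 for all genes. All HCQ-evolved pools were above all control pools for 17 genes and below them for 3, against 18.6% and 17.3% of all genes. At an unadjusted p under 0.05, 12 were higher and 2 lower (12.5% and 12.7% of all genes). After adjustment, 0 were called in edgeR's quasi-likelihood test (3.82% of all genes rose and 2.64% fell), and DESeq2 called 8 higher and 1 lower (9.02% and 8.72% of all genes). Deviations of same-position pools correlated positively under this label (0.565, 0.295 and 0.231 for L, M and R). Control pool M, however, correlated more with the HCQ-evolved pool R (0.5), so pairing by position was clear for L alone. Deviations from the label's mean ranked with transcript length at a Spearman rho of -0.511, 0.472 and 0.042 in control pools L, M and R. The values were -0.213, 0.301 and 0.469 in the HCQ-evolved pools. Whether the pairing follows length instead of position was not tested. With plate position as a replicate block, 7 genes rose (CENPA, CENPC, KNL1, BUB1, TTK, KNTC1 and SGO2) and SKA3 fell, where 7.82% of all genes rose and 6.43% fell. Without control pool L, 14 rose and 1 fell, where 25.2% of all genes were called in either direction, and 7 of the 47 genes changed sign.

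**Figure D1:**
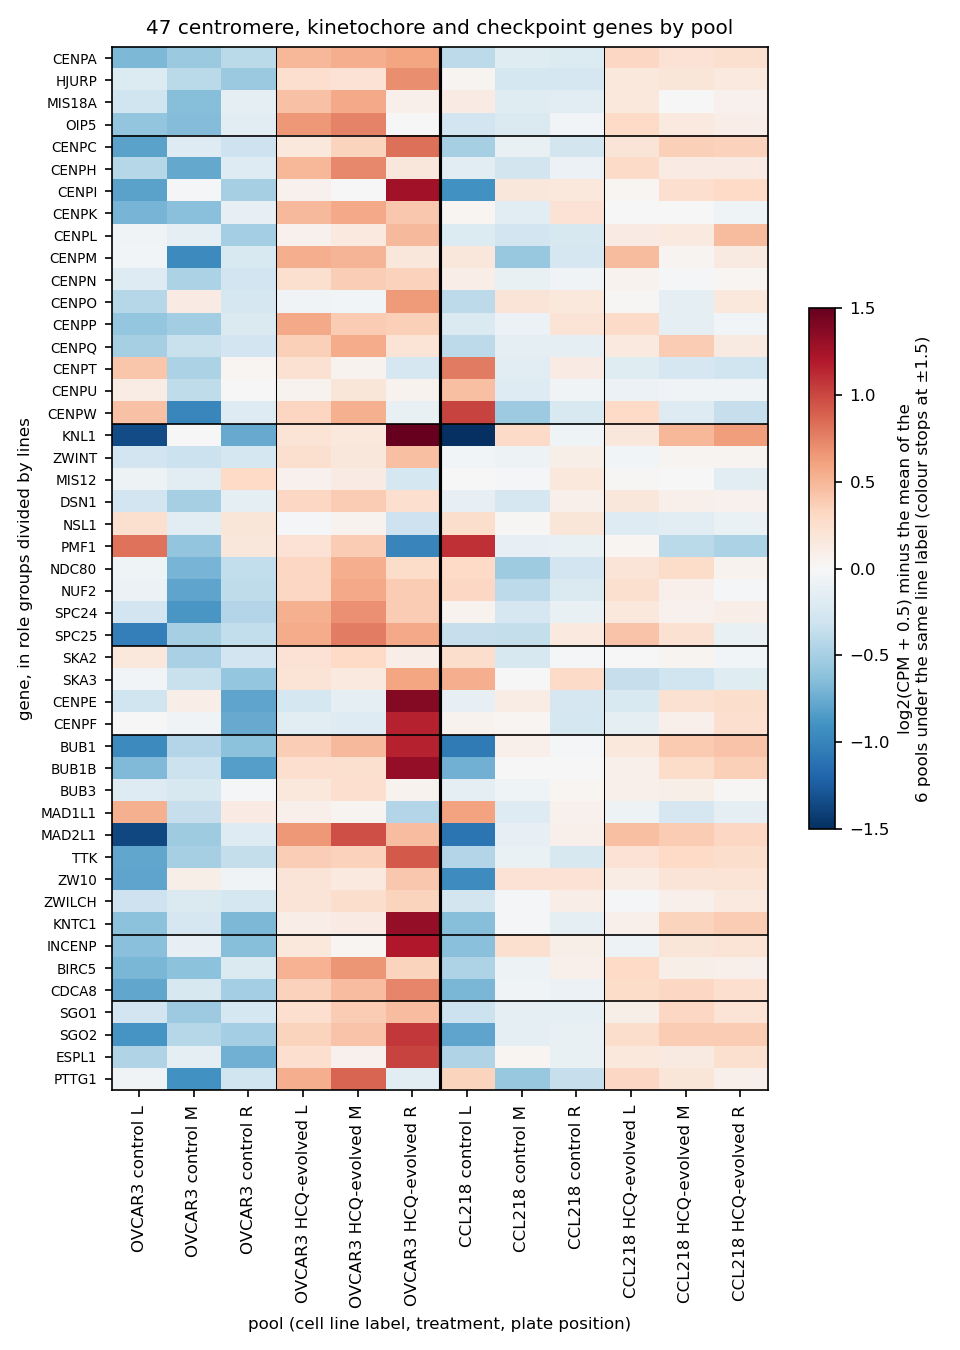
Level of each of the 47 tested genes (rows, in role groups) in each of the 12 pools (columns), as log2(CPM + 0.5) minus the mean of the 6 pools under the same line label. Under the OVCAR3 label most rows turn from blue in the control pools to red in the HCQ-evolved pools, and the HCQ-evolved pool R is the darkest for KNL1, CENPI, CENPE, CENPF, BUB1B, KNTC1 and INCENP. Under the CCL218 label the colours are paler, and the control pool L differs most from its group.

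Among the genes of the centromeric nucleosome, CENPA, which encodes the centromeric histone itself, had 16.7, 18.2 and 20.3 CPM in the OVCAR3-labelled control pools L, M and R, and 38.4, 39.5 and 40.9 CPM in the HCQ-evolved pools. It had 15.8, 18.6 and 18.2 CPM in the CCL218-labelled control pools and 26.2, 24.6 and 25.0 CPM in the HCQ-evolved pools. The groups did not overlap under either label, and the spread within each group was a small part of the difference. CENPA rose with a log2 fold change of 1.12 ± 0.18 (standard error, SE; adjusted p = 0.0289 in edgeR) under the OVCAR3 label. Leaving out pools or changing the model moved that adjusted p from 9.33e-08 to 0.151, with values of 1.04 to 1.2. With the replicate block the log2 fold change was 1.13 (adjusted p = 0.118 in edgeR). In the CCL218-labelled pools it was 0.52 ± 0.12 (adjusted p = 0.0528 in edgeR), and 0.52 with the replicate block (adjusted p = 0.0441; 0.00101 to 0.224 over all alternatives). CENPA shares 138 exonic bases with its neighbour SLC35F6 on the same strand.

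The other genes of this group load CENP-A onto the centromere. HJURP, the CENP-A chaperone, had log2 fold changes of 0.81 and 0.31 under the OVCAR3 and CCL218 labels, and MIS18A, a subunit of the MIS18 licensing complex, had 0.76 and 0.15. OIP5, also called MIS18 beta, had 16.3, 15.6 and 22.2 CPM in the OVCAR3-labelled control pools and 39.4, 41.9 and 25.0 CPM in the HCQ-evolved pools. It had 13.5, 14.1 and 16.1 CPM in the CCL218-labelled control pools and 20.4, 18.3 and 17.8 CPM in the HCQ-evolved pools. OIP5 was thus higher in all evolved pools under both labels, with a log2 fold change of 0.99 ± 0.26 (adjusted p = 0.105 in edgeR) under the OVCAR3 label and 0.37 ± 0.13 (adjusted p = 0.147) under the CCL218 label. With the replicate block the second value was 0.37 (adjusted p = 0.14 in edgeR). OIP5 shares 1111 exonic bases with genes on the opposite strand, and the strand setting of the counting was not given in the sources used here. All 4 genes had all 3 evolved pools above the control pools under the OVCAR3 label (13% of all genes), and 3 of 4 did under the CCL218 label (18.6%).

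The inner kinetochore was split. All 13 genes had log2 fold changes above 0 under the OVCAR3 label (median 0.8, range 0.01 to 1.04), with evolved pools above for 9 (13% of all genes). The median under the CCL218 label was 0.07 (range -0.56 to 0.6), with evolved pools above for 4 (18.6% of all genes) and below for 1 (17.3%). CENPC, which binds the CENP-A nucleosome directly, had 10.4, 16.1 and 14.9 CPM in the OVCAR3-labelled control pools and 20.7, 23.4 and 33.1 CPM in the HCQ-evolved pools. It had 14.3, 18.9 and 16.8 CPM in the CCL218-labelled control pools and 23.4, 26.3 and 26 CPM in the HCQ-evolved pools. It was the inner kinetochore gene with the smallest p under the CCL218 label, and its evolved pools stood above the control pools under both labels. The log2 fold change was 0.92 ± 0.27 (adjusted p = 0.142 in edgeR) under the OVCAR3 label and 0.6 ± 0.15 (adjusted p = 0.0546) under the CCL218 label, where the replicate block gave 0.6 (adjusted p = 0.026; 0.00345 to 0.261 over all alternatives).

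CENPK and CENPN, CCAN subunits of the CENP-HIKM and CENP-LN modules, were apart under the OVCAR3 label alone, with a difference between the labels that did not pass the interaction test (adjusted p = 0.0877 and 0.189 in edgeR). CENPK had 22.0, 23.2 and 33.1 CPM in the OVCAR3-labelled control pools and 50.7, 53.9 and 48.1 CPM in the HCQ-evolved pools. It had 31.4, 27.3 and 35.9 CPM in the CCL218-labelled control pools and 30.9, 30.7 and 29.5 CPM in the HCQ-evolved pools. The evolved pools were far above the controls under the first label and within their range under the second, with log2 fold changes of 0.98 ± 0.22 (adjusted p = 0.0702 in edgeR) and -0.06 ± 0.14 (adjusted p = 0.815). CENPN had 47.1, 38.8 and 44.3 CPM in the OVCAR3-labelled control pools and 64.1, 70.1 and 68.8 CPM in the HCQ-evolved pools. It had 45.1, 38.9 and 40.5 CPM in the CCL218-labelled control pools and 43.7, 41.2 and 43.1 CPM in the HCQ-evolved pools. As with CENPK, the groups were apart under the OVCAR3 label (0.66 ± 0.17, adjusted p = 0.101 in edgeR) and overlapped under the CCL218 label (0.04 ± 0.12, adjusted p = 0.871). CENPT and CENPW, which form a histone fold pair at the centromere, were the lowest of the inner kinetochore under the CCL218 label, at -0.56 and -0.32, but at -0.25 and 0.34 without control pool L.

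In the outer kinetochore, 7 of 10 genes had evolved pools above control pools under the OVCAR3 label (13% of all genes), with a median log2 fold change of 0.7. Under the CCL218 label 1 of 10 did (18.6% of all genes), with a median of 0.18. The 4 subunits of the NDC80 complex, the rod that grips the microtubule, were all among the 7 under the OVCAR3 label. Their log2 fold changes there were 0.76 for NDC80, 0.85 for NUF2, 1.08 for SPC24 and 1.53 for SPC25. SPC24 had 33, 21.7 and 29.6 CPM in the OVCAR3-labelled control pools and 58.4, 65.1 and 52.5 CPM in the HCQ-evolved pools. It had 27.6, 22.2 and 24.5 CPM in the CCL218-labelled control pools and 29.9, 27.8 and 28.5 CPM in the HCQ-evolved pools. The gap was wide under the OVCAR3 label (1.08 ± 0.21, adjusted p = 0.0505 in edgeR) and narrow under the CCL218 label (0.21 ± 0.13, adjusted p = 0.352), although the groups were apart under both. SPC25, named after its values were seen, had the lowest level per length of the 4 subunits, 1.59 CPM per kilobase over all pools, and means of 1.31 CPM in the OVCAR3-labelled control pools and 3.76 CPM in the HCQ-evolved pools.

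KNL1, the scaffold that binds the BUB checkpoint kinases, was also named after its values were seen, because 1 pool weighed heavily on it. It had 17.2, 44.2 and 26.0 CPM in the OVCAR3-labelled control pools and 50.9, 49.4 and 149 CPM in the HCQ-evolved pools. Its log2 fold change was 1.54 ± 0.54 (adjusted p = 0.212 in edgeR), and 0.78 without the HCQ-evolved pool R. The MIS12 complex, which joins the CCAN to KNL1 and NDC80, was different: MIS12, NSL1 and PMF1 had log2 fold changes of -0.04, -0.17 and -0.24 under the OVCAR3 label and -0.1, -0.32 and -0.71 under the CCL218 label, and DSN1 had 0.64 and 0.19. NSL1 had 35.6, 26.9 and 34.1 CPM in the OVCAR3-labelled control pools and 29.8, 31.2 and 24.1 CPM in the HCQ-evolved pools. It had 34.5, 28.8 and 32.3 CPM in the CCL218-labelled control pools and 24.9, 25.3 and 26.6 CPM in the HCQ-evolved pools, all of which were below the controls (-0.32 ± 0.13, adjusted p = 0.174 in edgeR).

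PMF1 had the lowest log2 fold change of the 47 genes under both labels. It had 33.1, 12.3 and 21.0 CPM in the OVCAR3-labelled control pools and 21.8, 24.6 and 9.18 CPM in the HCQ-evolved pools. It had 22.4, 9.32 and 9.42 CPM in the CCL218-labelled control pools and 10.4, 7.59 and 7.24 CPM in the HCQ-evolved pools. The pools overlapped under both labels and the spread within a group exceeded the difference, with standard errors of 0.44 and 0.37. PMF1 shares 587 exonic bases with the readthrough gene PMF1-BGLAP on the same strand, so its counts are uncertain.

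Of the genes that couple kinetochores to microtubules, SKA3 had the smallest p. SKA3, a subunit of the SKA complex that tracks the microtubule end, had 60.9, 49.8 and 41.9 CPM in the OVCAR3-labelled control pools and 72.7, 69.9 and 95.3 CPM in the HCQ-evolved pools. It had 55.9, 38.1 and 46.7 CPM in the CCL218-labelled control pools and 30.1, 31 and 33.7 CPM in the HCQ-evolved pools. The evolved pools were all above the controls under the OVCAR3 label and all below them under the CCL218 label. The log2 fold changes were 0.66 ± 0.22 (adjusted p = 0.184 in edgeR) and -0.57 ± 0.17 (adjusted p = 0.0926), and under the CCL218 label SKA3 fell with the replicate block (-0.56, adjusted p = 0.0496; 0.0148 to 0.343 over all alternatives). SKA2 had 0.41 and -0.02. SKA1 had 0 to 2 counts in every pool, at or under the 3 counts that 0 allows, so its level was not measurable from these counts. Why its counts were so low was not tested. CENPE, a kinesin, and CENPF, a corona protein, had 0.86 and 0.67 under the OVCAR3 label, and 0.1 and 0.06 without the HCQ-evolved pool R.

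**Figure D2:**
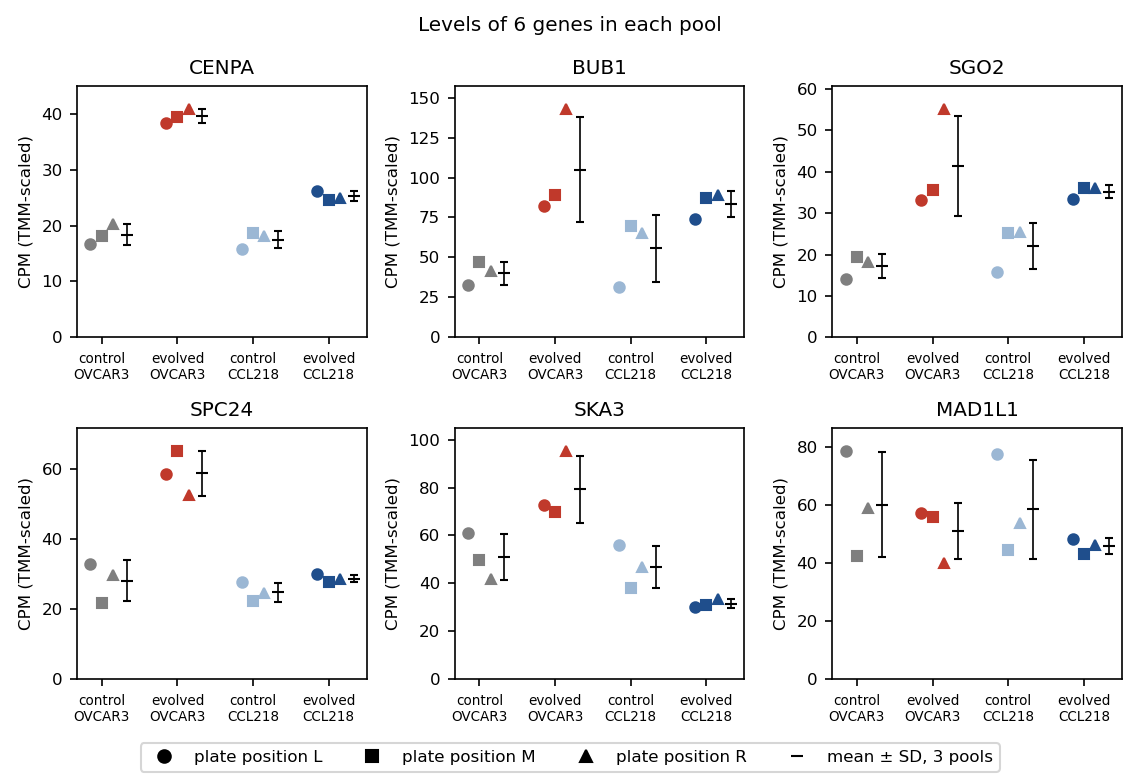
CPM of CENPA, BUB1, SGO2, SPC24, SKA3 and MAD1L1 in each pool, by group; symbols give the plate position, and the black mark and bar give the mean and SD of 3 pools. CENPA, BUB1, SGO2 and SPC24 are above the controls in all HCQ-evolved pools under both labels, SKA3 is above them under the OVCAR3 label and below them under the CCL218 label, and MAD1L1 overlaps under both.

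The spindle assembly checkpoint had the highest median log2 fold change of the 7 roles, 1.15 under the OVCAR3 label and 0.45 under the CCL218 label. Evolved pools were above control pools for 8 and 5 of its 9 genes, where they were for 13% and 18.6% of all genes. BUB1, the kinase that recruits the other checkpoint proteins to KNL1, had 32.6, 46.9 and 41.2 CPM in the OVCAR3-labelled control pools and 82.3, 89.3 and 143 CPM in the HCQ-evolved pools. It had 31.5, 69.9 and 65.4 CPM in the CCL218-labelled control pools and 74.1, 87.1 and 89.1 CPM in the HCQ-evolved pools. The groups were apart under both labels, with the OVCAR3-labelled HCQ-evolved pool R far above and the CCL218-labelled control pool L far below the pools of their own groups. The log2 fold change was 1.4 ± 0.28 (adjusted p = 0.0554 in edgeR) under the OVCAR3 label and 1.09 without that evolved pool. In the CCL218-labelled pools it was 0.58 ± 0.29 (adjusted p = 0.253 in edgeR), 0.29 without that control pool, and 0.66 with the replicate block (adjusted p = 0.0476; up to 0.538 over all alternatives).

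TTK, the MPS1 kinase that starts checkpoint signalling, had 15.7, 19.1 and 21.1 CPM in the OVCAR3-labelled control pools and 35.3, 34.7 and 52.0 CPM in the HCQ-evolved pools. It had 17.8, 22.7 and 20.5 CPM in the CCL218-labelled control pools and 28.4, 30 and 29.2 CPM in the HCQ-evolved pools. The groups were apart under both labels, and the CCL218-labelled evolved pools lay within 2 CPM of each other. The log2 fold change was 1.15 ± 0.24 (adjusted p = 0.064 in edgeR) under the OVCAR3 label and 0.52 ± 0.13 (adjusted p = 0.0658) under the CCL218 label, where the replicate block gave 0.52 (adjusted p = 0.0411; 0.00511 to 0.282 over all alternatives). MAD2L1 and BUB1B, which encode the MAD2 and BUBR1 subunits of the mitotic checkpoint complex, had 1.35 and 1.31 under the OVCAR3 label and 0.68 and 0.45 under the CCL218 label. BUB3, which binds both BUB1 and BUBR1, had 0.33 and 0.11. KNTC1, ZW10 and ZWILCH, the RZZ complex that brings dynein to the kinetochore, had 1.17, 0.48 and 0.55 under the OVCAR3 label. Without the HCQ-evolved pool R, BUB1B had 0.84 and KNTC1 0.63, and without control pool L, ZW10 had 0.23.

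MAD1L1, which anchors MAD2 at the kinetochore, was the exception of the checkpoint. It had 78.7, 42.5 and 59.1 CPM in the OVCAR3-labelled control pools and 57.4, 56.0 and 40.0 CPM in the HCQ-evolved pools. It had 77.6, 44.4 and 53.7 CPM in the CCL218-labelled control pools and 48.4, 43.0 and 46.2 CPM in the HCQ-evolved pools. The groups overlapped under both labels (-0.21 ± 0.26, adjusted p = 0.736 in edgeR, and -0.36 ± 0.21, adjusted p = 0.33).

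The chromosomal passenger complex, which corrects faulty attachments, had 3 genes in the set. All 3 had evolved pools above control pools under the OVCAR3 label (13% of all genes), with a median log2 fold change of 1.03. Under the CCL218 label 1 did (18.6% of all genes), with a median of 0.3. BIRC5, or survivin, had 62.4, 65.8 and 86.8 CPM in the OVCAR3-labelled control pools and 145, 161 and 127 CPM in the HCQ-evolved pools. It had 54.8, 71.6 and 79.9 CPM in the CCL218-labelled control pools and 93.3, 80.7 and 79.8 CPM in the HCQ-evolved pools. The groups were apart under the OVCAR3 label (1.02 ± 0.2, adjusted p = 0.0517 in edgeR) and overlapped narrowly under the CCL218 label (0.3 ± 0.17, adjusted p = 0.308). CDCA8, or borealin, had 30.1, 44.1 and 36.5 CPM in the OVCAR3-labelled control pools and 66.6, 72.3 and 87.4 CPM in the HCQ-evolved pools. It had 29.5, 46.0 and 45.1 CPM in the CCL218-labelled control pools and 58.0, 59.6 and 57.3 CPM in the HCQ-evolved pools. CDCA8 was apart under both labels (1.05 ± 0.22, adjusted p = 0.0647 in edgeR, and 0.53 ± 0.19, adjusted p = 0.134). With the replicate block the second value was 0.56 (adjusted p = 0.0535 in edgeR). INCENP, the scaffold of the complex, had 1.03 under the OVCAR3 label and 0.54 without the HCQ-evolved pool R.

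SGO2, which shields centromeric cohesin, had the smallest p of the cohesion and separase genes under both labels. It had 14, 19.3 and 18.2 CPM in the OVCAR3-labelled control pools and 33.2, 35.6 and 55.2 CPM in the HCQ-evolved pools. It had 15.8, 25.1 and 25.4 CPM in the CCL218-labelled control pools and 33.3, 36.1 and 36.0 CPM in the HCQ-evolved pools. The groups were apart under both labels. The log2 fold change was 1.29 ± 0.27 (adjusted p = 0.0616 in edgeR) under the OVCAR3 label and 0.67 ± 0.2 (adjusted p = 0.0966) under the CCL218 label, where the replicate block gave 0.7 (adjusted p = 0.0253; 0.00715 to 0.326 over all alternatives). ESPL1, the separase, and SGO1, the other shugoshin, had 0.96 and 0.79 under the OVCAR3 label and 0.35 and 0.42 under the CCL218 label. PTTG1, or securin, the inhibitor of separase, had the highest level per length of the 48 genes, with a mean of 114 CPM per kilobase of transcript over all pools. It had 87.1, 48.0 and 73.5 CPM in the OVCAR3-labelled control pools and 132, 167 and 81.1 CPM in the HCQ-evolved pools, with the evolved pool R below the control pool L. It had 79.3, 42.3 and 49.4 CPM in the CCL218-labelled control pools and 78.2, 71.0 and 66.1 CPM in the HCQ-evolved pools. PTTG1 overlapped under both labels (0.88 ± 0.31, adjusted p = 0.214 in edgeR, and 0.33 ± 0.24, adjusted p = 0.419), but the second value ranged from 0.16 without control pool M to 0.64 without control pool L (adjusted p = 0.00252 in edgeR). With the length and GC trend described below removed, PTTG1 was called under both labels (adjusted p = 0.00701 and 0.0107 in edgeR).

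**Figure D3:**
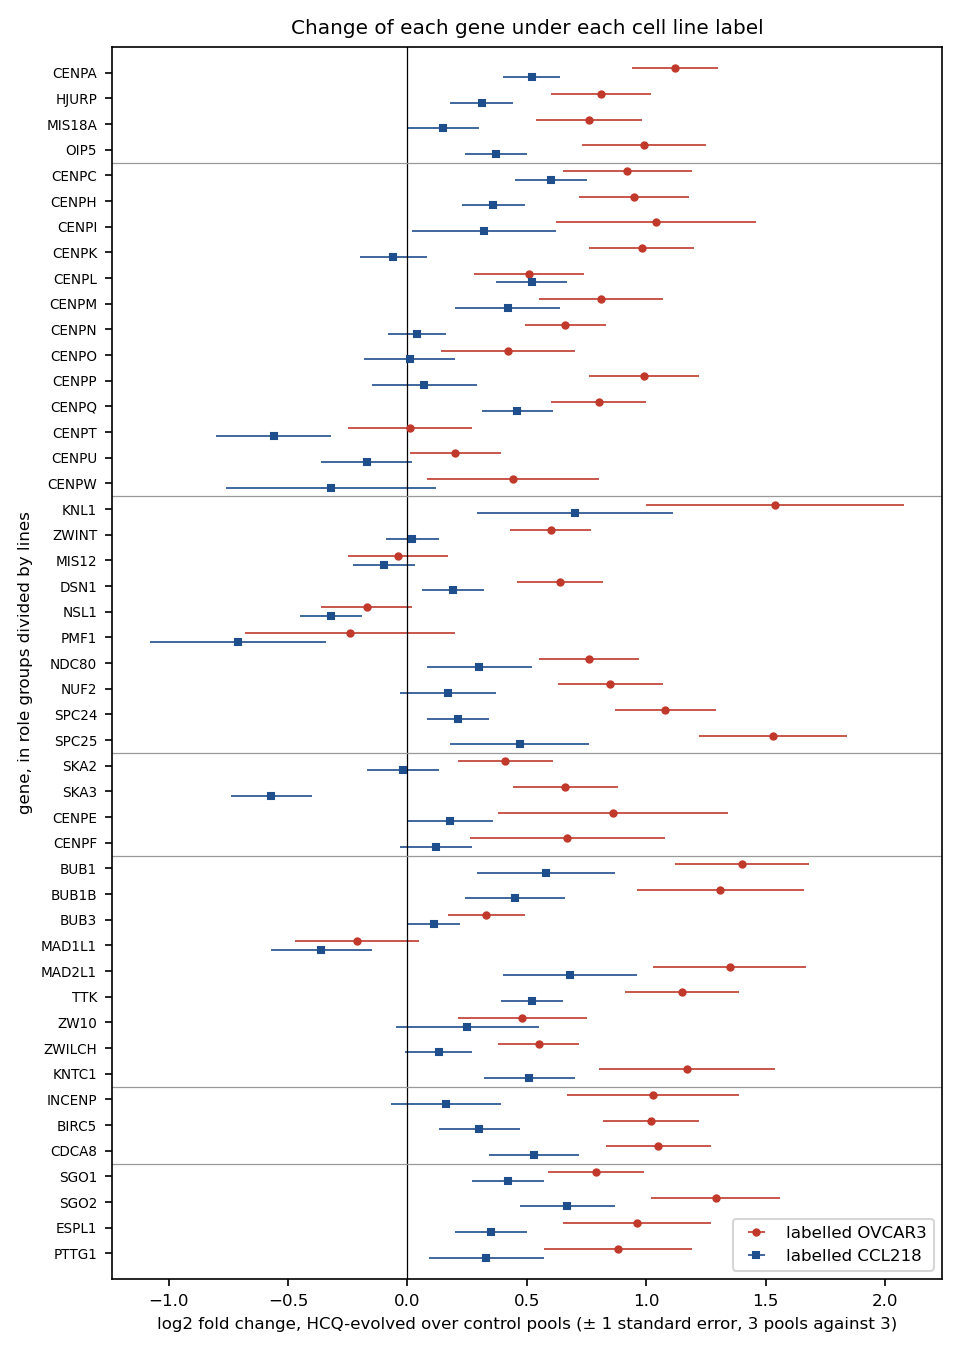
Log2 fold change of HCQ-evolved over control pools, with 1 standard error, for the 47 tested genes in role groups, under the OVCAR3 label (circles) and the CCL218 label (squares). The circles lie right of 0 for 43 genes with a median of 0.81 and the squares for 37 with a median of 0.25, and CENPL is the gene whose square is right of its circle.

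The difference between the 2 responses was tested as an interaction in 1 fit of all 12 libraries. It was below 0 (a smaller or more negative change under the CCL218 label) for 46 of 47 genes and above 0 for 1. Of all 12613 genes tested, 46.3% were above 0. The median of the 47 was -0.57 against -0.03 for all genes. After adjustment 0 were called in edgeR's quasi-likelihood test (0.69% of all genes above 0 and 0.182% below), 12 were below 0 and 0 above it at an unadjusted p under 0.05 (3.7% and 5.41% of all genes), and DESeq2 called 6 lower (CENPA, CENPK, CENPN, ZWINT, SPC24 and SKA3; 1.24% of all genes). SKA3 had the smallest p (-1.21 ± 0.27, adjusted p = 0.0766 in edgeR), followed by CENPK (-1.02 ± 0.24, adjusted p = 0.0877). Thus a different response was not shown for any single gene by the main test.

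No difference between the control pools of the 2 labels was detected in these genes. Of 47, 0 were called in edgeR's quasi-likelihood test, 0 passed an unadjusted p under 0.05 and 0 were called in DESeq2, where edgeR called 1.35% of all genes higher and 2.07% lower after adjustment, and 6.6% and 7.88% before it. The log2 difference of CCL218 over OVCAR3 was above 0 for 28 genes (50.8% of all genes) with a median of 0.09. The pools were apart for 2 genes, ZWINT and CENPF, both higher (8.66% of all genes were apart and higher and 9.13% apart and lower). The HCQ-evolved pools did differ. In them 10 genes were lower under the CCL218 label (6.4% of all genes) and 0 were higher (6.67%). The median log2 difference was -0.42 and 2 genes were above 0 (49.3% of all genes), 23 were lower and 0 higher at an unadjusted p under 0.05 (15.1% and 13.5%), and pools were apart and lower for 27 and higher for 0 (18.3% and 19.1%). The largest of the 10 by p were SKA3 (-1.33 ± 0.19, adjusted p = 0.0012 in edgeR), SPC24 (-1.03 ± 0.17, adjusted p = 0.0022) and CENPN (-0.67 ± 0.13, adjusted p = 0.00505). They were followed by CENPA (-0.65 ± 0.13, adjusted p = 0.00602 in edgeR), OIP5 (-0.91 ± 0.21, adjusted p = 0.0142) and CENPK (-0.75 ± 0.17, adjusted p = 0.0145), and the others were MIS18A, CENPP, SKA2 and BIRC5. With the length and GC trend described below removed, 14 genes were lower (21% of all genes were called in either direction). CENPA (-0.46, adjusted p = 0.108 in edgeR), CENPK (-0.4, adjusted p = 0.0633) and SKA2 (-0.55, adjusted p = 0.0696) were then not called. The comparisons between labels share pools with those within each label and are not independent of them.

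Transcript length moved with the pools. Over all genes, the deviation of a pool from its label's mean ranked with transcript length at a Spearman rho of -0.511 to 0.567, with the highest in the OVCAR3-labelled HCQ-evolved pool R and the lowest in the CCL218-labelled control pool L. Over the 47 genes the range was -0.631 to 0.725. The 16 genes with the longest transcripts (3762 to 13115 bases) had a median deviation of 1.04 on the log2 scale in the OVCAR3-labelled HCQ-evolved pool R and 0.16 and 0.14 in the evolved pools L and M. The 16 with the shortest (715 to 2290 bases) had 0.23 in pool R and 0.46 and 0.56 in pools L and M. All 3 length classes were above 0 in every evolved pool and below 0 in every control pool under the OVCAR3 label. Across the 47 genes, fold change and length had a rho of 0.131 under the OVCAR3 label and 0.112 under the CCL218 label. With a trend on length and GC content removed from each library, 43 of 47 genes were above 0 under the OVCAR3 label (median 0.74) and 22 were called (5.13% of all genes were called higher), and 30 were above 0 under the CCL218 label (median 0.2) with 8 called higher and 1 lower (9.63% and 9.66% of all genes).

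**Figure D4:**
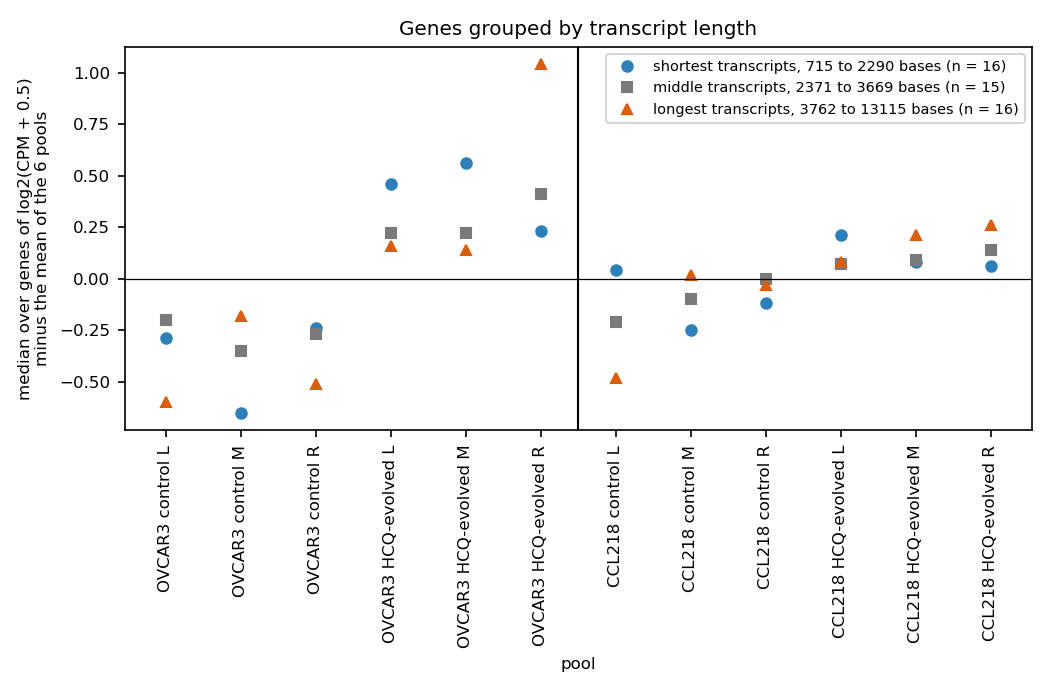
Median over genes of log2(CPM + 0.5) minus the mean of the 6 pools under the same label, for the shortest 16, middle 15 and longest 16 transcripts of the 47 genes, in each pool. All classes are above 0 in the OVCAR3-labelled HCQ-evolved pools, and the longest class reaches 1.04 in pool R.

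The neighbouring parts of the pathway were counted for comparison. Of 22 other centromere, kinetochore and checkpoint genes, 7 rose under the OVCAR3 label, where 0.647% of all genes did. They were the kinases AURKA (1.01), NEK2 (1.21) and CDK1 (1.29), the cyclins CCNB1 (0.92) and CCNB2 (0.96), the checkpoint target CDC20 (0.91) and the microtubule depolymerase KIF2C (1.1). Under the CCL218 label 21 were tested and 3 rose (3.82% of all genes did), NEK2 (0.73), KIF2C (0.56) and CDK1 (0.63). The medians under the OVCAR3 and CCL218 labels were 0.83 and 0.35. AURKB, the kinase of the passenger complex, named after its values were seen, had 0.88 and -0.05 and was not called under either label. Of 18 genes of the anaphase-promoting complex and its activators, 0 were called under either label in edgeR, near the shares of all genes called (1.86% and 6.46%). At an unadjusted p under 0.05, 1 was higher under the OVCAR3 label (8.38% of all genes) and 4 were lower under the CCL218 label (12.7%). The medians were 0.17 and -0.01. Of 25 G1/S genes, 2 rose under the OVCAR3 label (0.647% of all genes), GINS1 (1.23) and RRM2 (1.08). All 25 had log2 fold changes above 0 there (51.6% of all genes). Evolved pools were above control pools for 15 of them and below for 0 (13% and 12.7% of all genes). At an unadjusted p under 0.05 in edgeR, 11 were higher and 0 lower (8.38% and 7.87%). Under the CCL218 label 0 rose (3.82% of all genes), and the medians were 0.47 and 0. Of 18 regulators of cell cycle transcription, CDKN1A, which encodes the inhibitor p21, was the only one called. CDKN1A fell under the OVCAR3 label (-1.35, adjusted p = 0.0218 in edgeR), where 1.21% of all genes fell. It rose under the CCL218 label (1.19, adjusted p = 0.00603 in edgeR), where 3.82% of all genes rose. FOXM1 and MYBL2, activators of late cell cycle genes, had 1 and 0.59 under the OVCAR3 label and 0.23 and -0.03 under the CCL218 label. Neither was called, and they too were named after their values were seen. The difference of the responses was below 0 for 25 of 25 G1/S genes and 20 of the 22 other centromere, kinetochore and checkpoint genes. It was below 0 for 16 of 18 anaphase-promoting complex genes and 15 of 18 regulators. The medians were -0.46, -0.53, -0.22 and -0.37, so a smaller response under the CCL218 label was not particular to the 47 tested genes.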

How the data were processed

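The deposited table held read counts per gene symbol for 12 libraries. Per the study's methods and the submitters' processing notes, the authors aligned reads to hg38 with STAR, removed duplicates with RmDup and counted them with featureCounts; versions, annotation and strand setting were not given in the sources used here. Of table entries from 1 to 4, 78.9% were even, so the counts may hold both mates of a pair, and removing duplicates can lower the counts of abundant short transcripts. A gene had to reach 1 CPM in 3 or more libraries of a fit, and was then tested with edgeR 4.0.16 (R 4.3.3; TMM normalization, quasi-likelihood F test, two-sided, Benjamini-Hochberg adjustment over all genes, called under 0.05), each label fitted alone, and the interaction and the comparisons between labels in 1 fit of 4 groups. SKA1 did not pass the filter. CPM values shown were TMM-scaled over all 12 libraries. "Apart" means that all 3 pools of one group lay beyond all 3 of the other. The calculations were tested on simulated data without a length trend or pairing of pools, so that test does not cover those features.

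No 2 libraries of a group agreed within sampling noise. Pools of an arm came from separately passaged wells of 1 plate, so p-values measure the spread between such pools. The deviations of same-position pools correlated at 0.565 (L), 0.295 (M) and 0.231 (R) under the CCL218 label, and the blocked value is given there. Control pool M correlated at 0.5 with the HCQ-evolved pool R under that label, so the block rests on pairing that was clear for L alone. Whether that pairing follows transcript length was not tested. Transcript length and GC content came from GENCODE 44, matched by symbol for 25763 of 28278 symbols (91.1%) and all 48 genes. Alternatives were DESeq2 1.42.0, other size factors, no filter, the block, a length and GC trend (spline with 4 degrees of freedom) and leaving out each pool. Values in every pool are given for genes called in a comparison (at most 6 each by p), the smallest p of each role under each label, the 2 lowest fold changes under each label, the 2 smallest interaction p, and the highest and lowest level per length. The genes, roles and lists were chosen with earlier results of these data known.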

Additional observations from a re-analysis of the deposited data

Results flagged for a closer look

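Beyond the 48 genes, the response of TRIP13, the ATPase that remodels MAD2 at the spindle checkpoint, differed between the labels in the test of the difference (CCL218 minus OVCAR3, -1.02 ± 0.17 on the log2 scale, adjusted p = 0.0206 in edgeR): it had means of 50.4 and 83.4 CPM in control and HCQ-evolved pools under the OVCAR3 label, and of 49.7 and 40.5 CPM under the CCL218 label. The response of CDKN1A, which encodes p21, differed in the other direction (2.56 on the log2 scale, adjusted p = 0.000539 in edgeR), with means of 65.2 and 25.2 CPM under the OVCAR3 label and of 19.7 and 44.9 CPM under the CCL218 label.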

How the results depend on the processing

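Under the OVCAR3 label the test called 1 of 47 genes (1.86% of all genes in either direction). With no filter on low counts 12 were called (2.56%), with DESeq2 28 (9.05%) and with the length and GC trend removed 22 (8.84%). With all 12 libraries in 1 fit 26 were called (9.24%), with plate position as a replicate block 0 (0.664%) and with the block plus the trend removal 11 (3.62%). The pools were not paired by plate position there (correlations of 0.443, -0.715 and -0.52). DESeq2, the trend removal and the 12-library fit shared 19 called genes. Leaving out 1 pool gave 0 to 13 calls and a median of 0.66 to 0.89, with 13 calls (4.6% of all genes) and 0.66 without the HCQ-evolved pool R. CENPA was no longer called without any 1 of the other 5 pools, where 0.025% to 0.404% of all genes were called. Under the CCL218 label, where 0 were called, 9 were called with DESeq2 (17.7% of all genes), 9 with the trend removed (19.3%), 8 with the replicate block (14.2%), 7 with both (17%), 1 in the 12-library fit (5.19%) and 0 to 15 without 1 pool (15 without control pool L, 25.2%). Over both directions together, these counts were near the share of all genes. By direction they were uneven: DESeq2 called 8 higher and 1 lower (9.02% and 8.72% of all genes). The trend removal called 8 and 1 (9.63% and 9.66%), and the block 7 and 1 (7.82% and 6.43%). DESeq2, the trend removal and the block shared 5 genes (CENPA, CENPC, SKA3, TTK and SGO2). For the interaction, 6 were called with DESeq2 (3.67% of all genes), 3 with the trend removed (3.67%) and 0 to 1 without 1 pool (1 without the OVCAR3-labelled control pool R, 0.541%). Between control pools 1 gene, CENPK, was called with the trend removed (5.89% of all genes). With it removed 14 were called between HCQ-evolved pools (21% of all genes), and CENPA, CENPK and SKA2 were not among them. Between HCQ-evolved pools 17 were called with DESeq2 (20.7% of all genes) and 4 to 17 without 1 pool (17 without the OVCAR3-labelled HCQ-evolved pool R, 31.5%; 5 and 4 without its pools L and M, and 4 without the CCL218-labelled HCQ-evolved pool M or R), against 10 (13.1%). With the replicate block shared by both labels, an alternative chosen after seeing the data, 14 were called there (16% of all genes). CENPN under the CCL218 label changed sign with the trend removed (-0.09, and -0.07 with the block too). CENPK there ranged from -0.15 to 0.04 without 1 pool (0.04 without control pool R), and PMF1 under the OVCAR3 label from -0.53 to 0.14 (0.14 without control pool L and 0.08 without the HCQ-evolved pool R). Over the 47 genes, leaving out the CCL218-labelled control pool L changed the sign of 7 (CENPO, CENPP, CENPU, CENPW, SKA2, ZW10 and INCENP) and leaving out the OVCAR3-labelled HCQ-evolved pool R that of 2 and shrank 11 others by over 1.5 times. The cause of these changes was not tested. The block changed no other call. RLE size factors called 12 genes between HCQ-evolved pools (13.3% of all genes) and left the other counts as they were. SKA1, at 0 to 2 counts, was not measurable from these counts.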
